A study of Mus musculus with 17 samples.

Results

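The genes described here encode the subunits of the mitochondrial respiratory chain and ATP synthase that are read from the nuclear genome. They were found by symbol in the deposited count table: names beginning Nduf with a subunit letter and number, Sdha to Sdhd, names beginning Uqcr, the subunit names Cox4 to Cox8, and names beginning Atp5. The rule matched 91 of 25198 rows, of which 84 were genes and 7 were pseudogene rows with at most 6 counts in any library. Of the 84 genes, 76 passed the filter on low counts and were tested. The rule used no measured value.

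The study profiled RNA from antral ovarian follicles of CD1 mice, 16 days old, that had grown for 8 days in eIVFG (encapsulated in vitro follicle growth). Each sample held triplicate follicles, so a library mixes granulosa cells, the oocyte and any attached theca and stroma. The 6 Tyrphostin samples (3 in batch 1 and 3 in batch 2) received hCG, the hormone that starts ovulation in culture, together with 10 µM Tyrphostin AG1478 in DMSO for 4 h. AG1478 inhibits the kinase of the EGF receptor, which relays the ovulatory signal within the follicle. The 11 Control samples (6 in batch 1 and 5 in batch 2) carry the same strain, age and culture labels. The treatment text is identical for all samples, so whether Control follicles received hCG and DMSO is not stated. Library names divide the Control samples into 5 sets. The labels do not say whether a set came from 1 culture or several, and p-values measure the spread between these libraries. In bulk libraries fewer cells of a type and less RNA per cell cannot be told apart.

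Complex I oxidises NADH and complex II oxidises succinate, and both pass electrons to ubiquinone. Complex III hands them to cytochrome c and complex IV to oxygen, and the proton gradient built by complexes I, III and IV drives ATP synthase, complex V. Granulosa cells combine glycolysis with respiration, pass pyruvate to the oocyte, and make steroids in mitochondria, while the oocyte relies on respiration. Apart from complex II, each complex also needs subunits made inside the mitochondrion, so its assembly draws on both genomes.

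Total counts ran from 1820545 to 8291024 per library, and 3 counts corresponded to between 0.334 and 1.63 CPM (counts scaled by TMM to a common library total). In batch 1 the Tyrphostin libraries were deeper, with totals of 4680244 to 7451417 (mean 6150000) against 1820545 to 4834875 (mean 3790000) in Control. In batch 2 the mean totals were 4750000 in Control and 4900000 in Tyrphostin libraries. All 17 libraries had counts for every tested subunit. The summed granulosa markers were between 85300 and 107000 CPM in Control and between 78000 and 115000 CPM in Tyrphostin libraries, although Amh and Foxl2 did not pass the filter and Amh had no count in batch 1 Control libraries. Control 7, in batch 2, stood apart. Mitochondrially encoded mRNA made up 0.13% of its counts, against 1.6% to 1.76% in the other batch 2 Control libraries, and it was the highest of the 17 libraries for 41 of the 76 tested subunits (53.9%, against 14.8% of all genes tested). The tests are therefore given with and without Control 7. Since it was set apart partly for its high subunit values, fits without it are no separate support for higher subunits in Tyrphostin libraries.

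Levels were compared between genes per kilobase of transcript. In Control follicles the most abundant subunit transcript was Atp5b, the catalytic beta subunit of ATP synthase, at 675 ± 132 CPM per kilobase (SD, n = 11). Cox4i1, a structural subunit of complex IV, followed at 436 ± 168, and Cox8a, its smallest subunit, at 217 ± 115. Next came Atp5a1, the alpha subunit that alternates with beta in the catalytic ring, at 194 ± 30.5, and Uqcrh, the hinge protein of complex III, at 190 ± 93.3. The last 3 differed by less than 1 SD. These levels use the longest annotated transcript of each gene. With the median annotated length, Uqcrc1, a core protein of complex III, went from 97.3 to 302 and Uqcrq, a small subunit of it, from 82.3 to 248. Both then stood above Uqcrh (219), Cox8a (217) and Atp5a1 (202), while Atp5b and Cox4i1 were still the highest.

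The complexes differed in this level more within than between them. The median member stood at 16.4 CPM per kilobase in complex I, 41.4 in II, 70 in III, 42.7 in IV and 43.8 in V. Within complex I the accessory subunit Ndufa6 stood at 72.2 and Ndufb2 at 0.76. Within complex II the flavoprotein Sdha stood at 47.8, the iron-sulfur protein Sdhb at 39.7, the anchor Sdhd at 43.2 and the other anchor, Sdhc, at 1.07. The low values of Ndufb2, Sdhc and Atp5g1 rest on long annotated transcripts (4371, 3171 and 4715 bases). With the median annotated length they became 1.38, 4.15 and 5.44, and that of Sdha became 76.5. That length moved the level of 22 of the 76 subunits by over 1.5 times, among them Atp5md from 7.31 to 55.2, Ndufs1 from 11.8 to 48.4 and Ndufb8 from 15.1 to 59. The medians became 21.4 in complex I, 118 in III, 48.6 in IV and 55.2 in V, and that of complex II did not move.

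**Figure D1:**
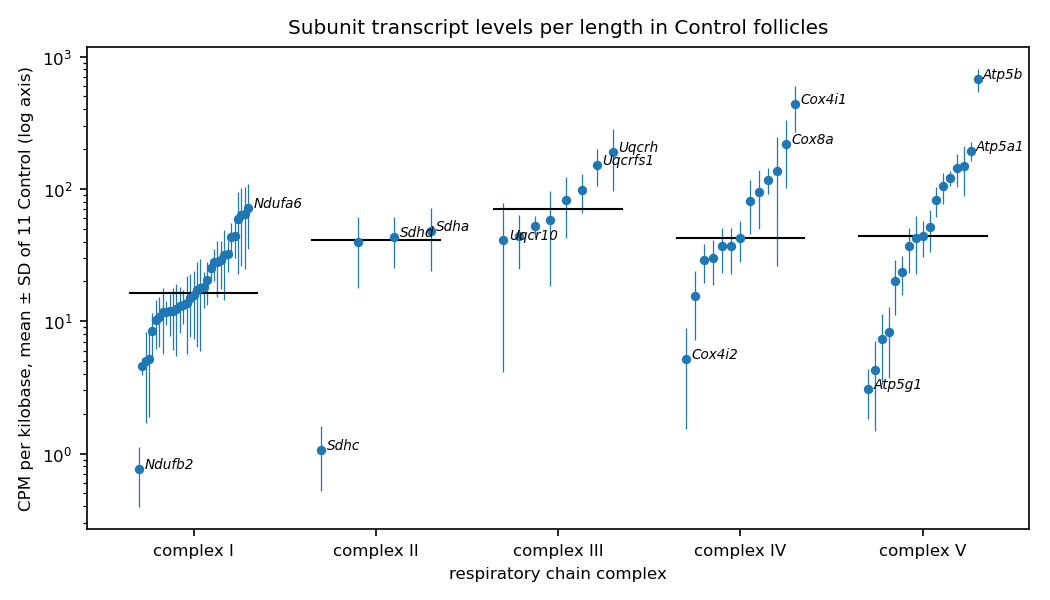
Level of tested subunit transcripts in Control libraries, as CPM per kilobase on a log axis, by complex. Points are means of 11 libraries, bars are SD (lower bars are cut short where they would reach 0) and black lines are the medians, from 16.4 in complex I to 70 in complex III, while single members span 0.76 to 675.

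Where a subunit has tissue isoforms, 1 gene supplied most of the transcript. Subunit c, which forms the rotor ring of ATP synthase, is encoded by Atp5g1, Atp5g2 and Atp5g3. Atp5g3 made up 94.7% ± 2.66 (SD) of the per-length level of the 3 genes over the 11 Control libraries, and 94.4% ± 1.04 (SD) over the 6 Tyrphostin libraries. With the shortest annotated transcripts these shares were 81.4% ± 7.06 and 78.4% ± 3.48, so the share depends on the Atp5g1 length used.

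For Cox4, the isoform Cox4i1 took 98.8% ± 0.53 in Control and 98.5% ± 0.588 in Tyrphostin libraries, and the oxygen-responsive Cox4i2 the remainder. Cox7a2 and Cox8a, the forms of most tissues, took 99% ± 1.69 and 99.9% ± 0.248 in Control libraries, against the heart and muscle forms Cox7a1 and Cox8b. Cox6a1 took between 99.7% and 100% in every library. The 8 subunit genes below the filter were low throughout: the muscle and testis forms Cox6a2, Cox7a1, Cox8b, Cox8c, Cox6b2 and Cox7b2 and the gene copy Cox6c2 had at most 7 counts in a library, and Ndufb4 had at most 16. For Ndufb4, 63% of 50-base windows of its transcript were unique to it, so its count is uncertain. Among tested subunits this share was lowest for Atp5l (31.5%), Atp5h (52.1%), Uqcrb (56.8%), Ndufs3 (64.2%) and Ndufs5 (68.9%).

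The isoforms that were tested did not pass the threshold. Cox4i1 was between 216 and 620 CPM (median 290) in Control and between 247 and 576 CPM (median 306) in Tyrphostin libraries. Cox4i2 was between 0.842 and 11.2 CPM (median 3.49) in Control and between 1.11 and 8.87 CPM (median 4.94) in Tyrphostin libraries. The ranges overlapped for both, with log2 differences of 0.06 ± 0.23 and 0.38 ± 0.39 (SE). Cox6a1 was between 28.5 and 113 CPM (median 47.4) in Control and between 45.3 and 107 CPM (median 48.5) in Tyrphostin libraries. Cox7a2 was between 18.7 and 52.6 CPM (median 26.8) in Control and between 17.5 and 37.8 CPM (median 25.9) in Tyrphostin libraries. Cox8a was between 67.7 and 295 CPM (median 106) in Control and between 70.1 and 148 CPM (median 111) in Tyrphostin libraries. For these 3 the Control maximum lay above every Tyrphostin library, and it was Control 7 each time.

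The subunit c genes also overlapped between groups. Atp5g1 was between 7.15 and 27.5 CPM (median 13.9) in Control and between 14.7 and 29.2 CPM (median 18.5) in Tyrphostin libraries. Atp5g2 was between 0.893 and 6.64 CPM (median 2.79) in Control and between 1.64 and 6.34 CPM (median 3.4) in Tyrphostin libraries. Atp5g3 was between 46.4 and 191 CPM (median 89.6) in Control and between 68.1 and 188 CPM (median 120) in Tyrphostin libraries. Of the 3, Atp5g1 had the largest difference, 0.55 ± 0.23, with an edgeR adjusted p of 0.151.

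The comparison of Tyrphostin with Control on the full 17 libraries, adjusted for batch, asked how subunit transcripts stood when EGF receptor signalling was inhibited. Of the 76 subunits, 4 rose and none fell (5.26%), where 10.6% of the 9603 genes tested were called, 4.35% of them higher and 6.25% lower. For higher calls the shares of subunits and of all genes, 5.26% and 4.35%, were close. The unadjusted p was under 0.05 for 17 subunits, all higher. The difference was positive for 64 subunits and negative for 12, with a median of 0.19 on the log2 scale, where the median of all genes was 0. With library totals as the only scaling the median of all genes moved to 0.15, 14 subunits rose, and the calls over all genes went from 418 higher and 600 lower to 715 and 396. With log10 total count as a covariate 1 subunit rose, Ndufv2, the median of the subunits was 0.12, 24 were negative, and the calls over all genes were 245 higher and 433 lower. The 4 that rose were Ndufv2, Ndufs8 and Ndufc1 of complex I and Atp5c1 of complex V.

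**Figure D2:**
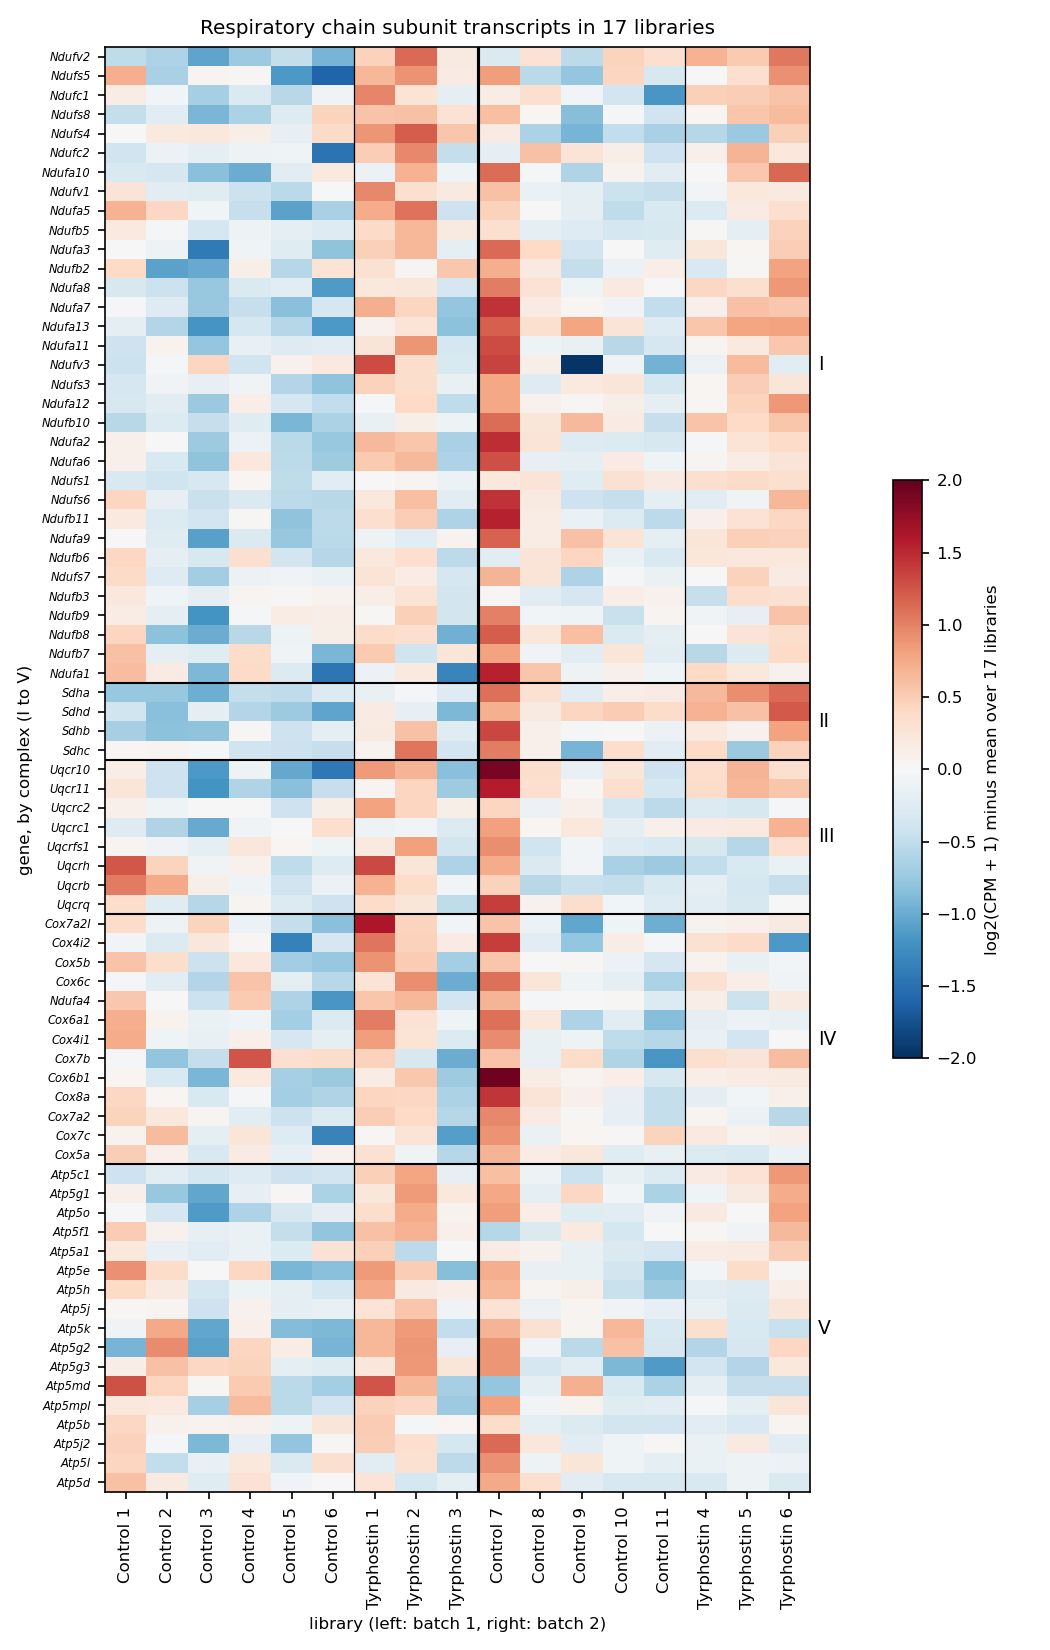
Level of tested subunits in each library as log2(CPM + 1) minus the mean of the gene over 17 libraries, with complexes I to V from top to bottom and libraries of batch 1 left and batch 2 right. Control 7 is the reddest column in most rows, and Tyrphostin 1, 2 and 6 are redder than Tyrphostin 3 and 4.

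Ndufv2 encodes the iron-sulfur subunit beside the flavin where NADH is oxidised (GRCm38, chromosome 17, 66078638 to 66101559, minus strand). It was between 9.83 and 29.8 CPM (median 14.8) in Control and between 24.5 and 48.4 CPM (median 33.6) in Tyrphostin libraries. In each batch all 3 Tyrphostin libraries were above every Control library of that batch, and 5 of 6 were above every Control library of both. Control libraries averaged 17.6 ± 7 CPM (SD, n = 11), Tyrphostin libraries 36.1 ± 9.41 CPM (SD, n = 6), for a log2 difference of 1.07 ± 0.19 (SE, edgeR adjusted p = 0.000669). Without Control 7 the difference was 1.04 ± 0.19.

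Ndufs8 encodes an iron-sulfur subunit on the path from NADH to ubiquinone (chromosome 19, 3908863 to 3912774, minus strand). It was between 7.45 and 23.3 CPM (median 12.4) in Control and between 15.3 and 23.8 CPM (median 22.6) in Tyrphostin libraries. The groups overlapped, and 4 of 6 Tyrphostin libraries were above every Control library except Control 7. The log2 difference was 0.67 ± 0.21 (SE, edgeR adjusted p = 0.0473). This call did not hold in 13 of the 17 fits that each left out 1 library, where the adjusted p reached 0.109. It was also lost with RLE scaling, without the batch term and with the depth covariate (adjusted p from 0.05 to 0.0815).

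Ndufc1 encodes a small accessory subunit of the membrane arm (chromosome 3, 51404677 to 51408988, minus strand). It was between 7.87 and 23.9 CPM (median 18) in Control and between 16.7 and 38.2 CPM (median 26.9) in Tyrphostin libraries. In batch 2 all 3 Tyrphostin libraries were above every Control library, and in batch 1 the groups overlapped through Tyrphostin 3. The log2 difference was 0.69 ± 0.21 (SE, edgeR adjusted p = 0.0336), and it was 0.52 without Tyrphostin 1, with an adjusted p of 0.154. The call was also lost without Control 3, 4 or 5 or Tyrphostin 6 (adjusted p from 0.0514 to 0.0679). Without the batch term, with Control libraries summed by set, with the depth covariate or with a GC offset it was lost too (0.0525 to 0.11).

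Atp5c1 encodes the gamma subunit, the shaft that turns inside the catalytic ring of ATP synthase (chromosome 2, 10056016 to 10080510, minus strand). It was between 120 and 246 CPM (median 134) in Control and between 144 and 296 CPM (median 213) in Tyrphostin libraries. In batch 1 the groups did not overlap, and in batch 2 they overlapped only through Control 7. The log2 difference was 0.64 ± 0.17 (SE, edgeR adjusted p = 0.0181) and 0.74 without Control 7 (adjusted p = 0.0014). The call was lost without Tyrphostin 1, 2 or 6 (adjusted p from 0.0511 to 0.0757), with Control libraries summed by set (0.0585) and with the depth covariate (0.0829).

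**Figure D3:**
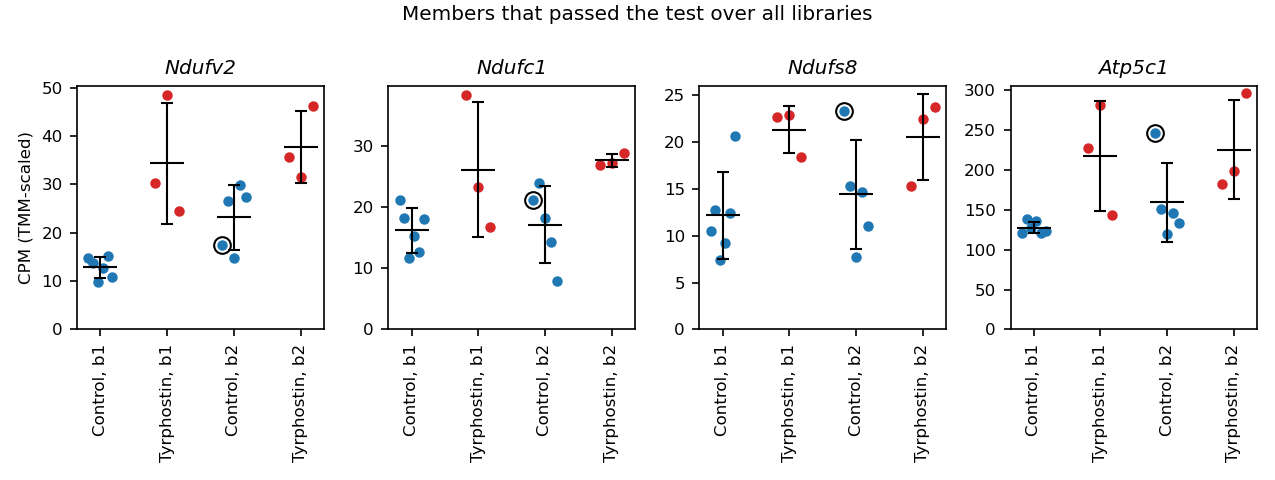
CPM of the 4 subunits that passed the test over all libraries, by group and batch (b1, b2), with axes from 0. Points are libraries (blue Control, red Tyrphostin, ringed Control 7) and bars are mean ± SD, with all 3 red points of Ndufv2 above the blue points of the same batch in both batches.

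The promoters of Ndufv2 and Atp5c1, the called subunits of lowest p, are shown because the promoters of respiratory genes are known to share sites for a few factors: NRF1, ETS factors such as GABP, YY1 and the estrogen-related receptors (ERR). The 250 bases before the RefSeq start site (GRCm38.p6) are printed 5′ to 3′ on the gene's strand, with a match to the NRF1 letters in capitals. Where a gene had several RefSeq starts, the window of the farthest downstream is printed. The windows lie on the minus strand at chr17:66101560-66101809 for Ndufv2 and chr2:10080433-10080682 for Atp5c1. The Atp5c1 window overlaps the gene span given above, which reaches 10080510, and the letters in capitals lie within that span.
Ndufv2: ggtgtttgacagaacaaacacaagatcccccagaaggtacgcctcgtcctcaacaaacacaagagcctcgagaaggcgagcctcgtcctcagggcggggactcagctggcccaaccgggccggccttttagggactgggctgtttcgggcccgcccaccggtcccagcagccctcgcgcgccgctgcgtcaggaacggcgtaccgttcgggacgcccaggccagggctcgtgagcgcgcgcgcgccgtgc
Atp5c1: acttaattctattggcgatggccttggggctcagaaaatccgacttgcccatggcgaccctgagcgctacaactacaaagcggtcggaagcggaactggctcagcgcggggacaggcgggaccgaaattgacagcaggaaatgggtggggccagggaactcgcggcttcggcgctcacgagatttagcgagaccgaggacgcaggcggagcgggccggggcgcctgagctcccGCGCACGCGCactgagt

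The letters searched, on both strands from 250 bases before to 50 after the start, were GCGCA, any base, then GCGC for NRF1, CCGGAAG for ETS, AAGATGGCG for YY1 and TCAAGGTCA for ERR. RefSeq promoters were found for 67 of the 84 subunit genes. For the shares below, a gene with several starts counted as a match if any of its windows held the letters. The NRF1 letters stood in 25.4% of the 67, against 12.5% of the tested genes with a promoter and 5.19% of all 27025 gene symbols with one. The YY1 letters stood in 10.4%, against 4.12% and 1.64%. ETS letters stood in 25.4%, against 22.2% and 9.93%. ERR letters stood in 2 subunit promoters (2.99%, against 0.316% and 0.466%), those of Atp5g3 and Sdhd. Among the 4 called subunits, Atp5c1 held the NRF1 letters, and Ndufc1 and Ndufs8 held YY1 and ETS letters after the start, outside the window printed. None of the 4 sets of letters stood in the Ndufv2 window. A match describes letters and is not evidence of binding.

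By complex, the values over all libraries were highest in complexes I and II. In complex I, 31 of 34 tested subunits were higher in Tyrphostin libraries, with a median of 0.36 and 3 called. The 3 were 2 of the 7 nuclear core subunits, which carry the flavin and the iron-sulfur clusters, and 1 of the 27 accessory subunits, where 10.6% of all genes were called and 4.35% were higher. Core and accessory subunits were not compared by a test. Ndufs4, an accessory subunit that helps hold the NADH-oxidising module in place, had 0.55 ± 0.19 (edgeR adjusted p = 0.0695). In complex II all 4 were positive, between 0.33 and 0.51, with a median of 0.38 and none called by edgeR (2 had an unadjusted p under 0.05).

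Sdha was between 74.2 and 317 CPM (median 121) in Control and between 123 and 324 CPM (median 186) in Tyrphostin libraries. In batch 1 the groups did not overlap, and in batch 2 Control 7 reached the Tyrphostin range. The difference was 0.51 ± 0.17 (edgeR adjusted p = 0.0633), and it was 0.63 without Control 7 (adjusted p = 0.00426).

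Complexes III and IV had medians near 0 over all libraries. Within batch 1 the differences ran from 0.05 (Uqcrb) to 1 (Uqcr10) in complex III, and none was called. In complex IV they ran there from -0.44 (Cox7b) to 1.03 (Cox4i2), also with none called. The values that follow are again from all libraries. In complex III the median was 0.08, from -0.15 ± 0.23 for Uqcrq to 0.44 ± 0.37 for Uqcr10, with none of 8 called and none with an unadjusted p under 0.05. Uqcrq turned to 0.01 when scaled by library totals. In complex IV it was 0.06, from -0.28 ± 0.17 for Cox5a to 0.64 ± 0.26 for Cox7a2l, with none of 13 called and 1 with an unadjusted p under 0.05. Cox7a2l is a supercomplex assembly factor that links complexes III and IV rather than a subunit of the free enzyme, and Tyrphostin 1 had 142 CPM of it where the other Tyrphostin libraries had 43.5 to 61.9. In complex V the median was 0.16, from -0.28 ± 0.18 for Atp5d to 0.64 for Atp5c1, with 1 of 17 called. The most abundant subunit, Atp5b, differed by 0.03 ± 0.16. Differences between complexes were not tested.

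Without Control 7 the count of subunits that rose was 16 of 76 (21.1%), where 13.8% of all genes were called, 6.21% higher and 7.55% lower. The median was 0.33 and none fell. They were 10 in complex I (Ndufv2, Ndufs8, Ndufc1, Ndufs4, Ndufv1, Ndufa7, Ndufa8, Ndufa10, Ndufa11 and Ndufb5), Sdha and Sdhb in complex II, Cox7a2l in complex IV, and Atp5c1, Atp5g1 and Atp5o in complex V. Ndufv1 binds the flavin beside Ndufv2, and Atp5o is the stalk subunit that joins the catalytic head to the membrane part. No subunit of complex III was called. Control 7 was set apart partly for being the highest library of 41 of the 76. Leaving it out raises their differences for that reason, so 21.1% beside the shares of all genes is not a test. The count was 1 without Tyrphostin 1 or without Tyrphostin 6, and 2 without Control 3, 4 or 5 or Tyrphostin 2, and Ndufv2 was called in all 17 of these fits.

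**Figure D4:**
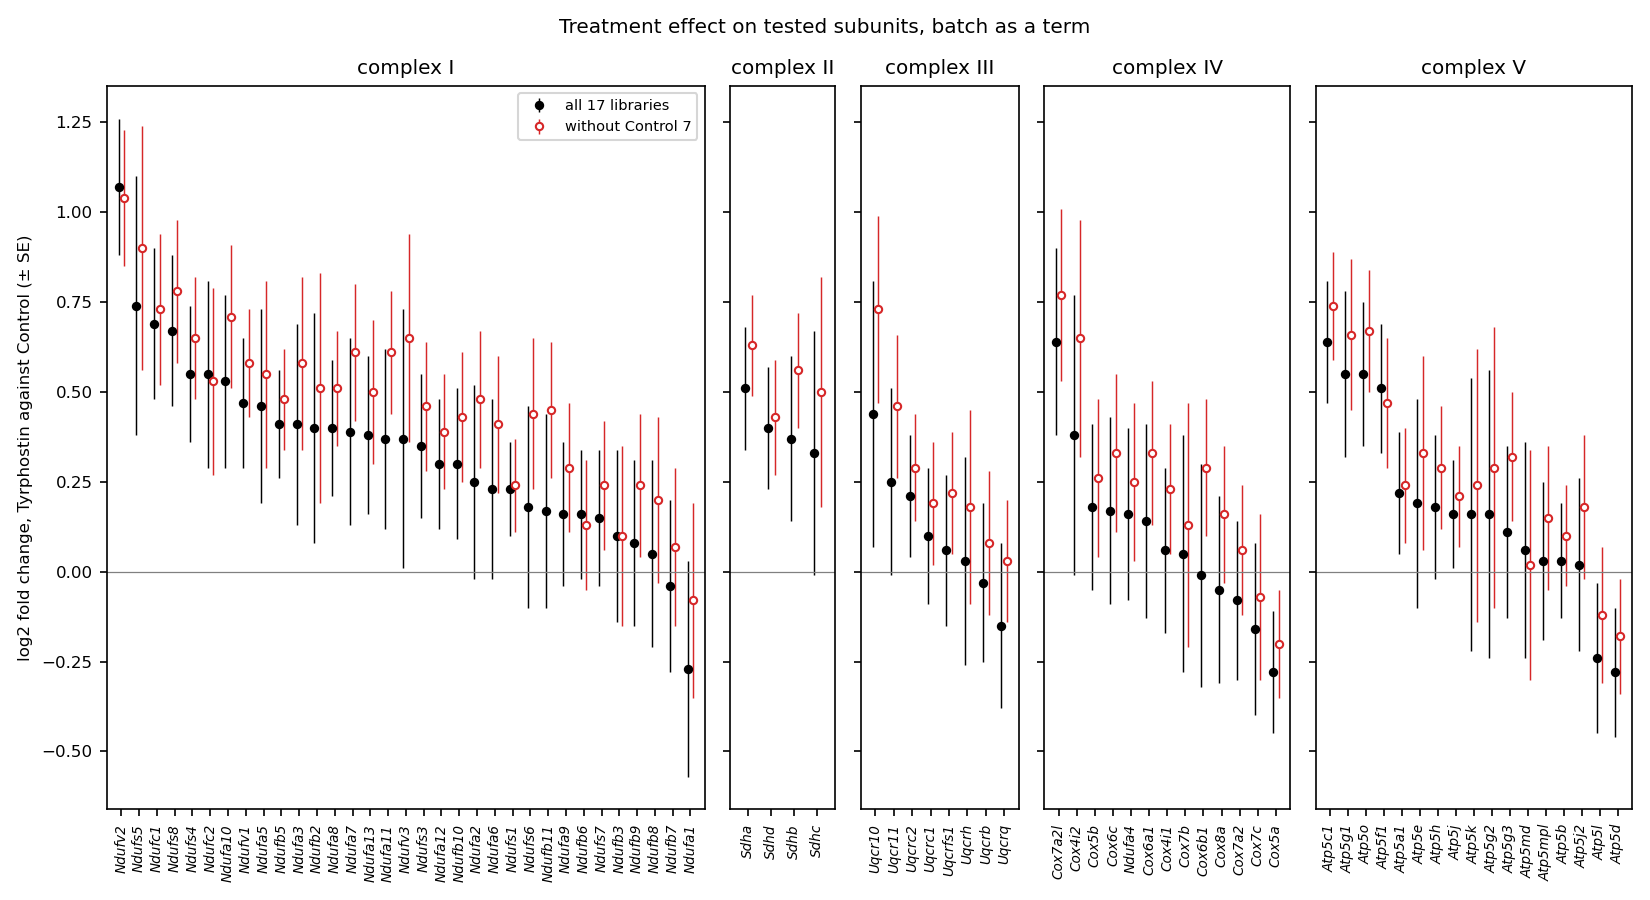
Log2 difference of Tyrphostin from Control for tested subunits by complex, from all 17 libraries (black) and without Control 7 (red, open), with SE bars. Most black points of complexes I and II are above 0, those of III and IV scatter around 0, and leaving out Control 7 moves most points upward.

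Within batch 1, 3 of 76 subunits rose (3.95%, where 6.73% of all genes were called, 2.94% higher and 3.79% lower). With library totals as the only scaling it was 8, and the calls over all genes went from 277 higher and 357 lower to 459 and 264. The 3 were Ndufv2 by 1.41, Ndufs4 by 0.79 and Atp5c1 by 0.77 (edgeR adjusted p = 0.00186, 0.0278 and 0.0383). The Atp5c1 call was lost with limma-voom and in 7 of the 9 fits that each left out 1 library, where the adjusted p reached 0.206. The median was 0.44 and 24 subunits had an unadjusted p under 0.05, all higher. Ndufs4 averaged 86.7 ± 11.4 CPM (SD) over the 6 Control libraries of batch 1, and its 3 Tyrphostin libraries averaged 149 ± 33.7 CPM (SD), with no overlap. The count was 1 without Control 2, 4 or 5 or without Tyrphostin 1 or 2, 5 without Control 6 and 7 without Tyrphostin 3. In this batch the theca and stroma markers had a median of -0.97, with Col1a1 and Col1a2 lower, and their part in the result was not tested.

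Within batch 2 edgeR called no subunit, where 0.621% of all genes were called, 0.193% higher and 0.427% lower. Ndufv2 (0.7) and Ndufc1 (0.69) were the 2 with an unadjusted p under 0.05, and DESeq2 and limma-voom also called 0. The median was -0.03, with 36 positive and 40 negative. Without Control 7 the count was still 0 (2.26% of all genes were called, 0.848% higher and 1.41% lower), 14 had an unadjusted p under 0.05, and the median was 0.29 with 64 positive.

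Whether the effect differed between batches was tested as an interaction. No subunit was called by edgeR, DESeq2 or limma-voom and none had an unadjusted p under 0.05, and edgeR called 0% of the 9603 genes (342 had an unadjusted p under 0.05). The difference of batch 2 from batch 1 was negative for 67 of 76 subunits, with a median of -0.49. Without Control 7 it was negative for 54, with a median of -0.16, and 1 subunit, Ndufv2, had an unadjusted p under 0.05. A p above the threshold does not show that the batches act alike.

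Control libraries alone were compared between batches to show how far subunits moved without the inhibitor. Of 67 subunits tested, 9 were higher in batch 2 (13.4%) and none lower, where 14% of 6680 genes were called, 7.26% higher and 6.77% lower. With library totals as the only scaling 16 subunits were higher, and the calls over all genes went from 485 higher and 452 lower to 840 and 270. The 9 were Sdhd, Sdha and Sdhb of complex II, Ndufa13, Ndufv2, Ndufa8, Ndufb10 and Ndufa9 of complex I, and Uqcr11 of complex III. Their differences lay between 0.85 (Sdhb) and 1.24 (Ndufa13), where the 4 called between treatments lay between 0.64 and 1.07. All 3 complex II subunits that were tested were called, while no subunit of complexes IV or V was.

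Sdhd, which anchors complex II in the membrane, was between 25.6 and 47.4 CPM in batch 1 and between 61.4 and 89.7 CPM in batch 2 Control libraries, with no overlap (1.1 ± 0.18, edgeR adjusted p = 0.00129). Without Control 7 it was 1.04 ± 0.18. Sdha averaged 95.9 ± 16.9 CPM (SD) in the 6 libraries of batch 1 and 190 ± 74 CPM (SD) in the 5 of batch 2. It was higher there by 1.01 ± 0.22, and by 0.77 without Control 7. Ndufv2 was 12.9 ± 2.14 CPM in batch 1 and 23.2 ± 6.64 CPM in batch 2, a difference of 0.89 ± 0.23.

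Leaving out Control 7 ended the calls of Sdhb, Ndufa9 and Uqcr11 and added 2 lower ones, Atp5g3 (-0.8) and Ndufs4 (-0.75), so that 8 of 67 were called, where 14.9% of all genes were, 7.72% higher and 7.21% lower. The median moved from 0.32 to 0.07. Theca and stroma markers summed to between 268 and 763 CPM in batch 1 and between 444 and 2160 CPM in batch 2, where Control 7 was the highest and Control 8 had 2020. With Control 7, 4 of 8 tested were called, Dcn, Lum and Cyp17a1 higher in batch 2 and Acta2 lower (-1.38). Without it Dcn (1.53) and Lum (1.13) were called, and Cyp17a1 and Acta2 were not (adjusted p = 0.125 and 0.0723). Immune markers were between 18.6 and 61.5 and between 54 and 460 CPM, with Lyz2 called higher in both fits. Oocyte markers were between 30.4 and 94.8 and between 38.5 and 206 CPM. Of them H1foo was called higher (1.52, edgeR adjusted p = 0.0412) but not without Control 7 (0.102), and Gdf9 and Padi6 were not called. Cyp19a1 was the only granulosa marker called (0.91 higher, edgeR adjusted p = 0.0258), also without Control 7. The part of these markers in the subunit differences was not tested.

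The subunits were also described library by library. The median deviation of the 76 subunits from their own means was 0.82 in Control 7, 0.44 in Tyrphostin 1, 0.42 in Tyrphostin 2 and 0.33 in Tyrphostin 6, and it was lowest in Control 3 (-0.42) and Control 5 (-0.41). In Control 7 the cytosolic ribosomal proteins stood at 0.78, the proteasome at 0.57 and the mitochondrial ribosomal proteins at 0.52, while the mitochondrially encoded subunits stood at -3.11. In Tyrphostin 6 the cytosolic ribosomal proteins were at -0.32 with the subunits at 0.33. Tested subunits had a median annotated transcript of 870 bases, against 3292 for all genes tested, and a GC content of 50.7% against 49.7%. The part of transcript length, depth or RNA quality in the levels by library was not tested.

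**Figure D5:**
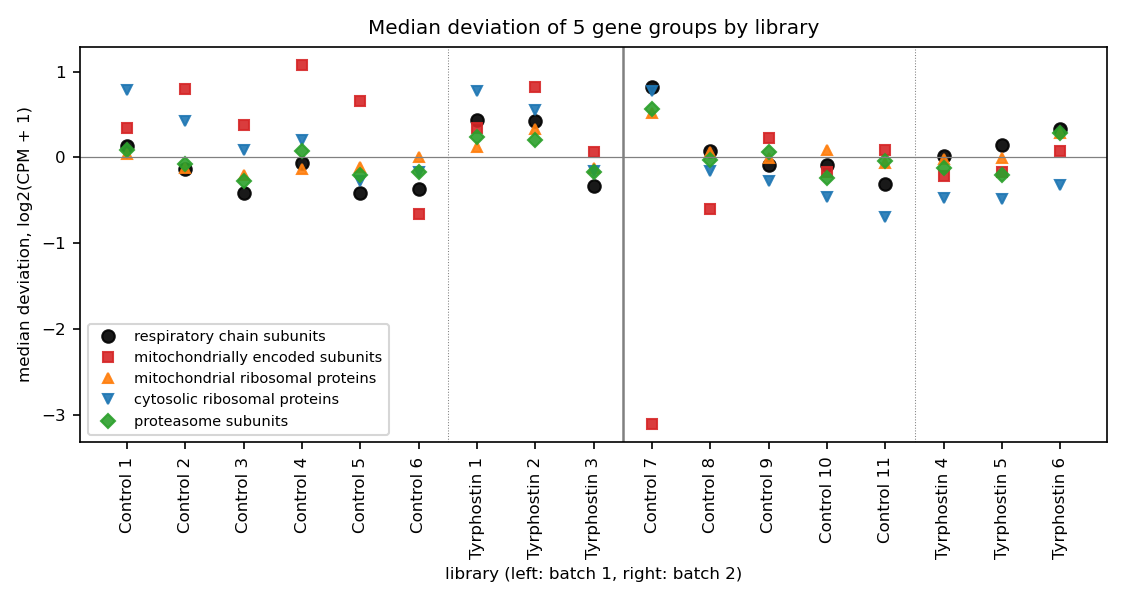
Median deviation from the mean over 17 libraries, in log2(CPM + 1), of 5 gene groups in each library, with batch 1 left and batch 2 right. In Control 7 the subunits (black, 0.82) and the 3 other nuclear groups are high while the mitochondrially encoded subunits (red) are at -3.11.

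As a share of all counts, the 91 matched rows, pseudogene rows included, made up 0.531% ± 0.113 (SD) over the 11 Control libraries. Over the 6 Tyrphostin libraries they made up 0.652% ± 0.0778 (SD). The share ran from 0.412% to 0.822% in Control and from 0.54% to 0.744% in Tyrphostin libraries, so the groups overlapped. Complex V alone held 0.26% ± 0.0354 and 0.317% ± 0.0309. Of the subunits encoded in mitochondria, 7 were tested for the treatment and none was called, with a median of 0.1, and the other 6 had at most 9 counts in a library. The mRNA of the mitochondrially encoded subunits made up 1.77% ± 0.65 of counts in Control and 1.26% ± 0.596 in Tyrphostin libraries, again overlapping. This share rests on the 7 tested genes, with mt-Co1 the largest part on average in Control libraries. Whether the low counts of the other 6 reflect their level or how reads were assigned was not tested.

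The gene with the highest mean level, mt-Co1, the subunit of complex IV that holds the site where oxygen is reduced, had the most negative difference of the 7. It was between 9990 and 19700 CPM in Control libraries other than Control 7, which had 149. In Tyrphostin 2, 4, 5 and 6 it was 919, 1650, 6090 and 709 CPM, while Tyrphostin 1 and 3 had 12100 and 13800. The group means were 12900 and 5870 CPM, for a log2 difference of -1.24 ± 0.7 (SE, edgeR adjusted p = 0.307). Of the other 6 tested, mt-Cytb had -0.07 ± 0.3 and 5 were positive, up to 0.34 ± 0.33 for mt-Nd1 (1970 CPM in Control and 2400 CPM in Tyrphostin libraries on average).

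Other genes of respiration were read from lists of assembly factors, carriers, ubiquinone synthesis, the tricarboxylic acid cycle with pyruvate dehydrogenase, and regulators. None of 13 complex I assembly factors was called by edgeR (none had an unadjusted p under 0.05), and of 23 factors for complexes II to V only Ttc19, needed for complex III, was (0.92 ± 0.28 higher, edgeR adjusted p = 0.0339). Of 10 genes of ubiquinone synthesis, Coq9, a lipid-binding partner in the pathway, rose by 0.81 ± 0.23 and Coq8b, an atypical kinase of it, fell by 1.25 on the log2 scale (adjusted p = 0.0263 and 0.00608). Coq8b was between 3.27 and 10.5 CPM in Control and between 1.17 and 5.9 CPM in Tyrphostin libraries. None of 17 genes of the tricarboxylic acid cycle and of the pyruvate dehydrogenase complex that feeds it (Pdha1, Pdhb, Dlat and Pdhx) was called by edgeR (2 had an unadjusted p under 0.05), with a median of 0.18. None of 5 tested subunits and carriers outside the naming rule (Cycs, Cyc1 and Ndufab1 among them) was called, with a median of 0.25.

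Of 11 regulators of mitochondrial biogenesis, 4 were called (36.4%, against 10.6% of all genes). The list was chosen with earlier results of these data known, so these shares are not a test of it. Nrip1, a corepressor of nuclear receptors that restrains oxidative genes in fat and muscle, rose by 0.74 ± 0.15 (edgeR adjusted p = 0.00232). It was between 15.6 and 27.6 CPM in Control and between 24.6 and 44.8 CPM in Tyrphostin libraries, with 5 of 6 above every Control library. Myc fell by 1.32 (adjusted p = 0.00323). The 11 Control libraries averaged 117 ± 56.2 CPM (SD) of it, and the 6 Tyrphostin libraries 46.1 ± 12.7 CPM (SD). Nrf1, whose product binds the NRF1 letters, and the coactivator gene Pprc1 each fell by 0.58 (adjusted p = 0.0335 and 0.0324). Each of the 4 was called again without Control 7. Nrf1 was between 22.2 and 41.8 CPM in Control and between 13.6 and 27.8 CPM in Tyrphostin libraries.

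For scale, 2 of 74 mitochondrial ribosomal protein genes were called (Mrps23 higher, Mrpl40 lower), with a median of 0.1. None of 83 cytosolic ribosomal protein genes (median -0.03) and none of 36 proteasome genes (median 0.07) was called by edgeR, with 1 and 2 at an unadjusted p under 0.05. Of 7 tested granulosa markers, 4 rose in the same comparison: Hsd17b1 by 2.64, Cyp19a1 by 2.35, Nr5a2 by 2.18 and Fshr by 0.83. The others, Inha, Inhba and Gja1, held most of the summed granulosa level. They averaged 44400, 24200 and 25400 CPM in Control and 42800, 22900 and 31800 CPM in Tyrphostin libraries. No oocyte, theca and stroma, endothelial or immune marker was called, and theca and stroma markers summed to between 268 and 2160 CPM in Control and between 273 and 3070 CPM in Tyrphostin libraries. Oocyte markers summed to between 30.4 and 206 CPM in Control, where Control 7 was the highest, and between 33.6 and 384 CPM in Tyrphostin libraries, where Tyrphostin 6 was. The part of cell makeup in the subunit differences was not tested.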

How the data were processed

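Per the submitters' processing notes, the authors used STAR, HTSeq and the build GRCm38 (versions and strandedness are not given in the sources used here) and deposited whole-number counts per gene symbol, used as deposited, for 17 Smart-Seq2 libraries, which carry no molecular identifiers. Counts went through edgeR 4.0.16 under R 4.3.3 (genes kept by filterByExpr on group, TMM, robust quasi-likelihood F test, Benjamini-Hochberg adjustment over all genes tested, threshold 0.05), and the code was tested on simulated data. Where Control batches were compared, the filter took all Control libraries as a single group and kept 6680 genes. A gene counted mainly in 1 batch could be left out there. SE is the log2 difference divided by the square root of F. CPM used TMM-scaled library sizes, and deviations used log2(CPM + 1). Per-length levels used the longest GENCODE M21 transcript, and isoform shares the principal one, a choice made after seeing the data. No 2 libraries of a group and batch (31 pairs) had counts as close as counting noise allows. Groups and batches came from the labels. Members, gene lists and comparisons were chosen with earlier results of these data known. Values by library are given for subunits called over all libraries and for isoform families. Genes at the extremes of level or difference in each complex, those called within or between batches, and called list genes were also named. DESeq2 1.42.0, limma-voom (limma 3.58.1), other scalings, filters and covariates, and omission of each library were tried. 1 subunit entered the fits and counts but is not reported here and not plotted. Shares and floors cover counting error only. Subunits named for calls without Control 7 or for few unique windows were chosen after their values were seen.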

Additional observations from a re-analysis of the deposited data

Results flagged for a closer look

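Values of 29 measures were examined in 87 groups of libraries for 1 library far from the rest of its group. It was so in 16 groups, where a rate of 1 in 20 would give 4.4. That rate assumes independent, normally spread values. Many of the measures were CPM of genes named for their values, so it is not the chance rate here. Among the 5 batch 2 Control libraries, Control 7 stood far from the others for 11 measures. It had 620 CPM of Cox4i1 (the others 216 to 300), 11.2 CPM of Cox4i2 (1.73 to 4.2), 295 CPM of Cox8a (78 to 131) and 52 CPM of Ndufa8 (23.4 to 30.9). For ATP synthase it had 246 CPM of Atp5c1 (120 to 151), 191 CPM of Atp5g3 (46.4 to 87.5) and 1650 CPM of Atp5b (982 to 1110). For complexes II and III it had 317 CPM of Sdha (126 to 182), 63.8 CPM of Uqcr10 (12.1 to 21.3) and 296 CPM of Uqcrq (94.2 to 145). Its mitochondrially encoded mRNA was the lowest, at 0.13% of counts (1.6% to 1.76%).

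Among the 6 batch 1 Control libraries, Control 1 had 538 CPM of Cox4i1 (the others 255 to 347). Among the 6 Tyrphostin libraries, Tyrphostin 1 had 107 CPM of Cox6a1 (45.3 to 63.9), 142 CPM of Cox7a2l (43.5 to 61.9), 239 CPM of Uqcrh (61.8 to 112) and 222 CPM of Atp5d (143 to 171). The Tyrphostin group spans both batches.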

How the results depend on the processing

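Over all libraries the count of subunits that rose, 4, was 14 with total counts as the only scaling, 2 without the batch term, 2 with Control libraries summed by set and 1 with log10 total count as a covariate. It was between 1 and 16 when 1 library was left out. In the other alternatives it stayed within 1.5 times of 4, and Ndufv2 was called in every fit of this comparison. Calls over all genes moved too, from 1018 to 1111 with total counts and 619 without the batch term. They were 708 with Control libraries summed by set and 678 with the covariate. Within batch 1 the count, 3, was 8 with total counts, 11 without a filter and 7 with the replicate block (numbers 1 to 3 only). It was between 1 and 7 with 1 library left out. Calls over all genes in this batch went from 634 (277 higher) to 903 (508 higher) without a filter. With the block they were 848 (381 higher). For most fits that left out 1 library, calls over all genes are not given here. Between Control batches the count, 9, was 16 with total counts and 15 with DESeq2 (14 higher and 1 lower in batch 2). In batch 2 and for the interaction it was 0 in every alternative. Over all genes, edgeR called 61 and DESeq2 303 for treatment within batch 2, and 937 and 1473 for batch 2 against batch 1, Control. The cause of these changes was not tested.

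Some differences near 0 changed sign. With the depth covariate Cox4i1 was -0.08, Cox6a1 -0.06, Atp5g2 -0.14 and Uqcrh -0.14. With total counts Cox7a2 was 0.07, Cox8a 0.11 and Uqcrq 0.01. Cox8a was 0.01 without a filter, and Atp5b was -0.01 with a length offset. With 1 library left out, Cox4i1 was between -0.13 and 0.23, Cox6a1 between -0.1 and 0.33, Cox7a2 between -0.21 and 0.06, Cox8a between -0.18 and 0.16, Atp5g2 between -0.05 and 0.35 and Atp5g3 between -0.03 and 0.32. Uqcrh was between -0.3 and 0.18, Atp5b between -0.06 and 0.1, Sdhc between -0.02 and 0.52, Uqcrq between -0.29 and 0.03, and Ndufs4 in batch 2 between -0.19 and 0.5. With median transcript length Sdha stood at 76.5 CPM per kilobase.

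Libraries that share a replicate number are not paired by the labels. Correlations of their deviations from group means were 0.5, 0.33 and 0.4 for numbers 1 to 3, which are in batch 1 in both groups, and between -0.14 and 0.01 for 4 to 6. From group and batch means those of 1 to 3 were 0.35, 0.08 and 0.06, and 6 of these 6 libraries were closest to their own number, a hint from the data and not from the design. The replicate block in batch 1 used only numbers 1 to 3 and left out Control 4 to 6. Its count of 7 held 2 of the 3 called without it (Atp5c1 had an edgeR adjusted p of 0.0579). Over both batches the block used only numbers 1 to 6, so no batch 2 Control library was in it. There numbers 4 to 6 set batch 1 Control beside batch 2 Tyrphostin libraries, so with the batch term the treatment effect came from numbers 1 to 3. In that fit the count was 4, with 2 of the 4 called without the block (Atp5c1 had 0.106 and Ndufc1 0.196). Cox8a was 0.03, Uqcrh -0.23, Atp5b -0.02 and Uqcrq 0.2.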
